A study of Mus musculus with 4 samples.

Results

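Gdpd3 and 7 enzymes that share its lipid substrates or products were followed through RNA libraries of sorted mouse dendritic cells (DCs). The 8 genes were Gdpd3, Gdpd1, Gdpd5 and Gde1 of the glycerophosphodiester phosphodiesterase (GDPD) family, and Napepld, Faah, Mgll and Daglb, which make or break down N-acylethanolamines and 2-arachidonoylglycerol. They are 8 of 46078 gene rows in the count table and were taken by gene symbol. All 8 were among the 14995 genes that passed a filter on low counts and were tested, Gdpd3 only through its Il33flx libraries. Gdpd3 was chosen by its result in the comparison of the genotypes, where it was the 1 gene called, with an adjusted p of 0.0458 in edgeR. Its values in that comparison therefore describe the choice, and nothing is supported with them. The other 7 were taken for their place in the pathway, with the same results known.

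GDPD enzymes cut glycerophosphodiesters, the backbones left when phospholipids lose their acyl chains. Gdpd3 and Gdpd1 also act as lysophospholipases D: they remove the head group from a lysophospholipid and release lysophosphatidic acid, and from N-acylated lysophospholipids they release N-acylethanolamines such as anandamide. Lysophosphatidic acid signals through G protein-coupled receptors, and anandamide and 2-arachidonoylglycerol are the main ligands of the cannabinoid receptors, of which Cnr2 is the form typical of immune cells.

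The study compared 2 genotypes with 2 libraries each. Ctrl mice carried the CD11c-cre transgene alone, and Il33flx mice carried CD11c-cre and loxP-flanked Il33 on both chromosomes (CD11c-cre-Il33flx/flx). All mice, controls included, had been injected with EL4-Flt3 tumour cells, a derivative of the T lymphoma line EL4, and were killed after 10 days. Spleen and mesenteric lymph node together supplied the cells, which were sorted for CD45, CD11b, MHC class II and CD103 and against CD64. The CD11c promoter drives Cre in DCs and in some other myeloid cells. No label states whether 1 animal, several animals or a shared pool lies behind each library, and the p-values therefore rest on library-to-library spread that may be technical.

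Libraries held 67707682 to 81217828 gene counts. Il33, the targeted gene, had 4 and 8 counts in Ctrl and 4 and 0 in Il33flx, too few to check the labels. Markers of the sorted cells were abundant in every library, among them H2-Ab1 at 38700 ± 5770 CPM (counts scaled to a common library total, TMM-normalized; mean ± SD, n = 2) in Ctrl and 36000 ± 4220 in Il33flx. Itgax, which encodes CD11c, had 582 ± 91.6 CPM in Ctrl and 383 ± 34.0 in Il33flx. Of the genes for the sorted surface proteins, Itgae (CD103) had 92.1 ± 33.4 and 66.7 ± 14.0 CPM and Itgam (CD11b) 118 ± 14.5 and 106 ± 11.7, while Fcgr1 (CD64) had 5.02 ± 0.673 and 4.24 ± 0.82. In bulk libraries, fewer cells of a type and less RNA per cell cannot be told apart.

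Gdpd3 (ENSMUSG00000030703) lies on chromosome 7 from 126766334 to 126775649 on the plus strand of GRCm38 and has 6 annotated transcripts, whose exons together cover 2186 bp. It encodes a membrane enzyme of the endoplasmic reticulum. The bases directly upstream of the annotated gene start are shown because they border the first exon of the gene that was chosen by its result. The sequence is from the RefSeq promoter table (GRCm38.p6, chr7:126766164-126766333, plus strand), with CpG dinucleotides in capitals.
Gdpd3 upstream: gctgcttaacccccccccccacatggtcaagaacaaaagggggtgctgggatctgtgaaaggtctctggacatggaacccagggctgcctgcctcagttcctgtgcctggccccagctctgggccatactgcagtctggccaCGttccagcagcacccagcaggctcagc

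The stretch shown holds 1 CpG in 170 bases. Over the full 300-base window of that table, from 250 bases before the RefSeq start to 50 after it, Gdpd3 had 7 CpGs, equal to the median of 7 over 32851 mouse promoters. The windows of the other 6 members in the table held 11 to 42 CpGs, so Gdpd3 had the fewest. Gdpd5 was not matched. None of 7 short motifs searched on both strands was in the Gdpd3 window. They were the TATA box (TATAAA), the CCAAT box, the GC box (GGGCGG), the E-box (CACGTG), the ETS core (CCGGAA), the STAT type of site (TTCNNNGAA) and the AP-1 type of site (TGACTCA). Of all promoters, 5.2% (the AP-1 type) to 37.4% (the CCAAT box) held each of them. The Napepld window, like that of Gdpd3, held none of the motifs. The Gdpd1 window held the STAT type of site at 2 positions. The Gde1 window held the CCAAT box and the GC box at 1 position each and the ETS core at 2. The Faah window held the GC box at 2 positions, and the Daglb window the ETS core at 2. Both Mgll windows held the GC box at 1 position, and 1 of them also the E-box. Such matches describe the letters of the window only.

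Gdpd3 was counted 2 times in Ctrl 1 and 3 times in Ctrl 2, but 731 times in Il33flx 1 and 456 times in Il33flx 2. In CPM these were 0.0261, 0.0399, 10.4 and 6.44. Both Ctrl libraries were thus at or under 3 counts, the limit that a count of 0 allows, which was worth 0.0391 to 0.0425 CPM, and both Il33flx libraries were far above it. Summed over libraries and scaled to their sizes, Gdpd3 was 255-fold higher in Il33flx, with an exact 95% counting interval of 109 to 787 that covers counting error only. The width of that interval comes from the 5 Ctrl reads. The fitted log2 fold change was 7.92 ± 0.53 (SE, edgeR), a value that depends on the prior count for a gene this close to 0 in Ctrl. The authors' deposited table lists a log2 fold change of 7.97 for Gdpd3, with an adjusted p of 2.75e-21.

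Ranked by CPM per kilobase of exon among 14945 tested genes with an annotated length, Gdpd3 lay at percentile 1.59 in Ctrl 1 and 1.89 in Ctrl 2, and at 58.2 in Il33flx 1 and 50.1 in Il33flx 2. It was thus among the lowest tested genes in both Ctrl libraries and near the middle in both Il33flx libraries. Of the counts of the 4 GDPD members, Gdpd3 made up 0.0118% and 0.0252% in the Ctrl libraries, against 6.24% and 3.92% in the Il33flx libraries. Il33flx 1 exceeded Il33flx 2 by a ratio of 1.61 in CPM. In edgeR, 0.00667% of the tested genes, which is Gdpd3 alone, were called higher in Il33flx at an adjusted p below 0.05, and 0.0% were called lower. The call is lost without Ctrl 2 (adjusted p = 0.119 in edgeR), where the log2 fold change is 8.23. Over 11 alternative settings the adjusted p ranged from 2.58e-21 in DESeq2 to 0.459 in limma-voom.

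Markers of other cell types differed between the same libraries, and their part in the Gdpd3 values was not tested. Over all tested genes, 15.4% were higher and 14.9% lower in both Il33flx libraries without overlap, and 489 (3.26%) had an unadjusted p below 0.05 in edgeR. All 7 B cell markers were higher in both Il33flx libraries, 6 of them at an unadjusted p below 0.05. No marker of this or the following lists was called by edgeR. Their summed CPM was 54.0 and 59.4 in Ctrl against 118 and 101 in Il33flx. For erythroid markers 6 of 7 were higher in both Il33flx libraries, 5 of them at an unadjusted p below 0.05. Their sums were 5.0 and 4.51 CPM in Ctrl against 28.4 and 12.6 in Il33flx, and Slc4a1, the red cell anion exchanger, was at 0 in Ctrl 1. Of 7 neutrophil markers 4 were higher in both Il33flx libraries, with sums of 264 and 255 CPM against 518 and 361. In each of these 3 lists Il33flx 1 was the higher of the Il33flx libraries, as it was for Gdpd3, but this order was not particular to them. Macrophage and monocyte markers summed to 907 CPM in Il33flx 1 and 812 in Il33flx 2, and plasmacytoid DC markers to 206 and 153. The DC, type 1 DC, NK cell and epithelial sums had the opposite order. Between the genotypes, T cell and EL4 markers went the other way, with 5 of 7 lower in both Il33flx libraries. Their sums were 136 and 89.0 CPM in Ctrl against 84.0 and 73.8 in Il33flx. All 5 DC markers had negative log2 fold changes, 2 of them lower without overlap, and Itgax had an unadjusted p of 0.0182 in edgeR. Of 6 type 1 DC markers 4 were negative, 3 of them lower without overlap. In contrast, 4 of 5 type 2 DC markers were positive, 1 of them higher without overlap. Of 6 epithelial markers, Krt5 and Krt14 were at 0 in all 4 libraries and 2 were tested, with a median log2 fold change of 0.73. Of these, Krt18 had 89 and 44 counts in Ctrl and 80 and 140 in Il33flx, and Krt8 had 21 and 11 against 23 and 23. The list sum was at most 2.3 CPM.

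Gdpd1 (ENSMUSG00000061666, chromosome 11, 87033867 to 87074062, minus strand) is the member closest to Gdpd3 in sequence and the other lysophospholipase D. The coding sequences, 993 bp for Gdpd3 and 945 bp for Gdpd1, aligned locally over 896 bp with 479 identical bases (53.5%). A 90-base window of spliced sequence is shown from the 3′ part of both coding sequences, bases 815 to 904 of Gdpd3 and 818 to 907 of Gdpd1. It was picked as the ungapped window of the alignment with the most identical bases. It therefore shows where the pair is most alike, and is not typical of the whole alignment. On GRCm38 the window spans chr7:126771209-126775538 (plus strand) for Gdpd3 and chr11:87035211-87035596 (minus strand) for Gdpd1, with intron sequence left out. Capitals mark the 32 mismatched positions, and the other 58 (64.4%) are identical.
Gdpd3: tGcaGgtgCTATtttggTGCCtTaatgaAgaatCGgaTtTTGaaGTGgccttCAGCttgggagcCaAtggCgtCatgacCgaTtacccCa
Gdpd1: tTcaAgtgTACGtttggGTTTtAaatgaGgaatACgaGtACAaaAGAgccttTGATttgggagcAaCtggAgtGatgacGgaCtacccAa

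The longest run of bases shared exactly by the Gdpd3 and Gdpd1 coding sequences was 11 bp, and untranslated sequence was not searched for such runs. Of all stretches of 50 bases in Gdpd3 transcripts, 8.95% also occurred in another annotated gene, and that gene was Gm9967, which overlaps Gdpd3 on the opposite strand. For Gdpd1 the share was 0.0%. Gm9967 itself was counted 0 and 4 times in the Ctrl libraries and 3 and 0 times in the Il33flx libraries. The strand setting of the counting is not given in the sources used here, so reads of the Gdpd3 strand and of the Gm9967 strand cannot be told apart where they overlap.

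Gdpd1 had 19 and 25 counts in Ctrl and 38 and 50 in Il33flx. Its CPM was 0.248 and 0.332 in Ctrl and 0.538 and 0.706 in Il33flx, so that both Il33flx libraries lay above both Ctrl libraries. The log2 fold change was 1.10 ± 0.57 (SE; edgeR adjusted p = 0.995), and Gdpd1 was not called. This is the largest difference among the other 7 members, from the lowest counts.

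**Figure D1:**
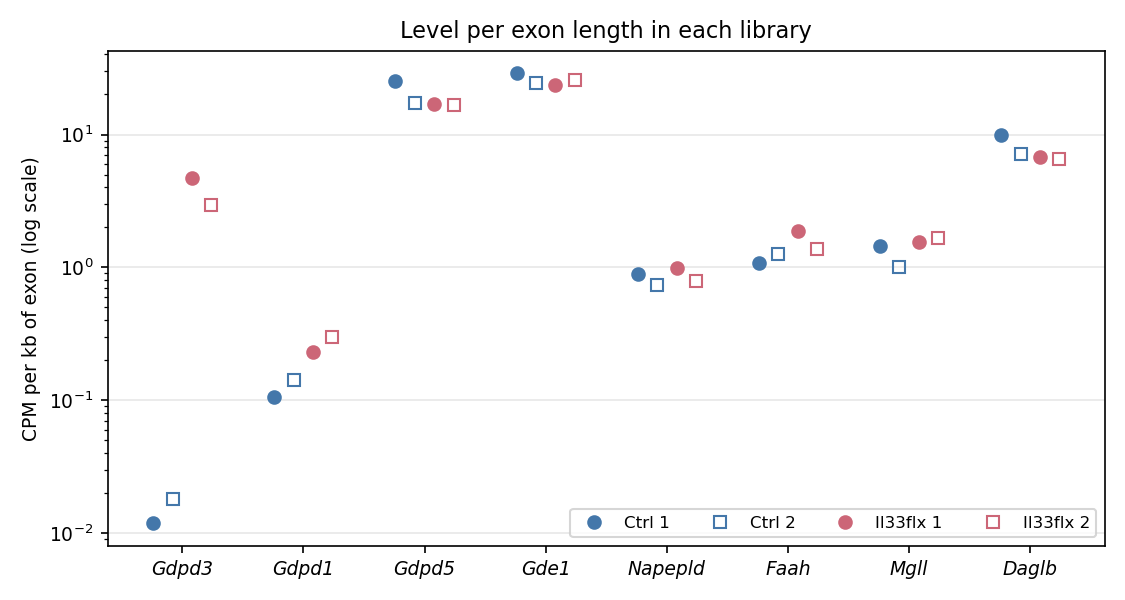
Level of each of the 8 members in each of the 4 libraries, in CPM per kilobase of exon on a log axis; filled and open symbols are replicates 1 and 2, blue for Ctrl and red for Il33flx. Gdpd3 is at 0.0119 and 0.0182 in Ctrl and at 4.74 and 2.95 in Il33flx, and the widest range among the other members is that of Gdpd1, from 0.106 to 0.302.

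Gdpd5 (ENSMUSG00000035314, chromosome 7, 99381414 to 99461877, plus strand) encodes a cell surface GDPD enzyme with several membrane spans that releases glycosylphosphatidylinositol-anchored proteins. It had 171 and 116 CPM in Ctrl and 115 and 113 in Il33flx. Ctrl 1 stood apart, and Ctrl 2 lay next to the Il33flx libraries. The means were 144 ± 38.5 and 114 ± 1.42 CPM (SD, n = 2), and the log2 fold change was −0.33 ± 0.23 (SE; edgeR adjusted p = 0.995). Without Ctrl 1 it was −0.02 and without Ctrl 2 −0.59, and it was not called in either case.

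Gde1 (ENSMUSG00000033917, chromosome 7, 118688545 to 118705778, minus strand) encodes a membrane glycerophosphodiesterase that can release N-acylethanolamines from their glycerophospho precursors. Its CPM was 48.9 and 41.5 in Ctrl and 39.6 and 43.7 in Il33flx, and the groups overlapped. The log2 fold change was −0.12 ± 0.20 (SE; edgeR adjusted p = 0.995). Gde1 shares the chromosome with Gdpd3 and Gdpd5, and the 3 genes lie megabases apart.

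Napepld (ENSMUSG00000044968, chromosome 5, 21662901 to 21701396, minus strand) encodes the phospholipase D that frees N-acylethanolamines directly from N-acylphosphatidylethanolamine, the route that needs no lysophospholipase D. It had 3.52 and 2.94 CPM in Ctrl and 3.90 and 3.15 in Il33flx. The groups overlapped, with a log2 fold change of 0.13 ± 0.32 (SE; edgeR adjusted p = 0.995). Faah (ENSMUSG00000034171, chromosome 4, 115967145 to 116017926, minus strand) encodes the amidase that degrades anandamide. It had 8.38 and 9.84 CPM in Ctrl and 14.7 and 10.7 in Il33flx, without overlap and with Il33flx 1 highest. The difference on the log2 scale was 0.48 ± 0.27 (SE; edgeR adjusted p = 0.995). It was 0.24 without Il33flx 1 and 0.72 without Il33flx 2.

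The remaining pair makes and removes 2-arachidonoylglycerol. Daglb (ENSMUSG00000039206, chromosome 5, 143464584 to 143505942, plus strand) encodes the diacylglycerol lipase that predominates in myeloid cells. Its CPM was 95.6 and 68.3 in Ctrl and 65.0 and 62.6 in Il33flx, with Ctrl 1 again apart from the other 3 libraries. The log2 fold change was −0.36 ± 0.22 (SE; edgeR adjusted p = 0.995), and it was −0.09 without Ctrl 1 and −0.59 without Ctrl 2. Rac1, on the opposite strand, overlaps the Daglb gene over 2309 bp and had 312 and 336 CPM in Ctrl and 214 and 263 in Il33flx, and reads of the overlap cannot be told apart without the strand setting. Of the 50-base stretches of Daglb transcripts, 23.9% also occurred in other annotated genes, the highest share among the 8. The brain form of the enzyme, Dagla, had 0 and 0 counts in Ctrl and 1 and 5 in Il33flx. Mgll (ENSMUSG00000033174, chromosome 6, 88724412 to 88828360, plus strand) encodes monoacylglycerol lipase, which hydrolyses 2-arachidonoylglycerol to arachidonic acid. It had 7.43 and 5.12 CPM in Ctrl and 7.90 and 8.41 in Il33flx. Both Il33flx libraries were higher, by 0.38 ± 0.29 on the log2 scale (SE; edgeR adjusted p = 0.995), and the difference was 0.13 without Ctrl 2 and 0.68 without Ctrl 1.

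Of the 8 members, 4 were higher in both Il33flx libraries (Gdpd3, Gdpd1, Faah and Mgll), 2 were lower in both (Gdpd5 and Daglb) and 2 overlapped (Gde1 and Napepld). Gdpd3 is in the first count by choice. The shares over all tested genes were 15.4% and 14.9%. The median log2 fold change of the 7 members other than Gdpd3 was 0.13, against 0.01 over all tested genes. The summed CPM of the 8 was 335 and 245 in Ctrl and 257 and 249 in Il33flx, most of it from Gdpd5, Daglb and Gde1. The total thus followed the 3 most abundant members, which were highest in Ctrl 1, and did not follow Gdpd3. In the authors' deposited table the other 7 members have log2 fold changes from −0.38 to 1.08 and adjusted p-values of 1.0.

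**Figure D2:**
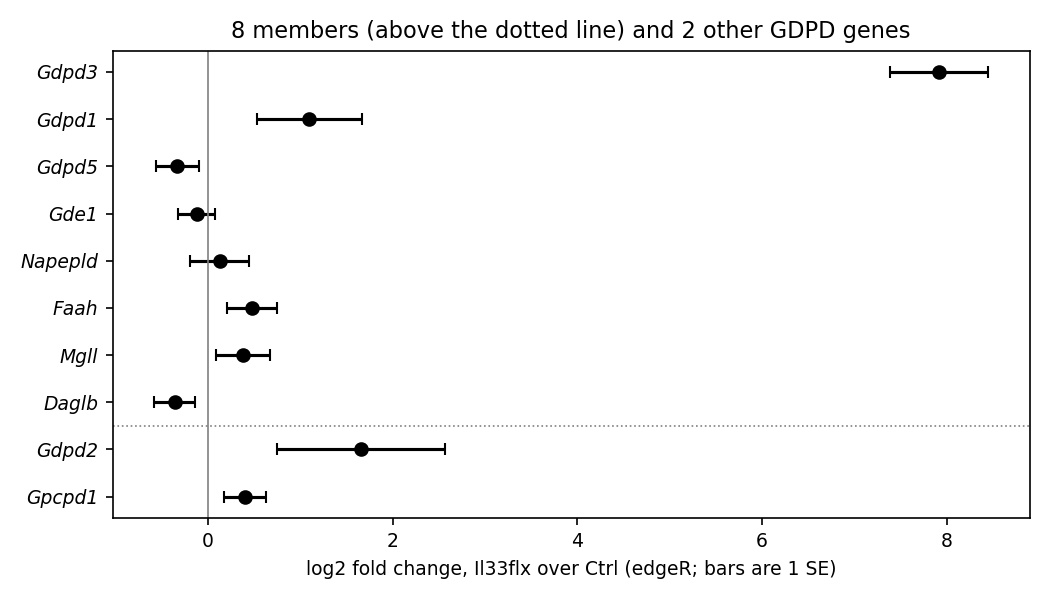
Log2 fold change of Il33flx over Ctrl from edgeR (points) with 1 SE on each side (bars) for the 8 members and, under the dotted line, the 2 other tested GDPD genes. Gdpd3 lies at 7.92, and the other 7 members lie between −0.36 and 1.10.

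Levels of different genes were compared per kilobase of exon. In Ctrl the order was Gde1 at 26.7 ± 3.12 CPM per kb, Gdpd5 at 21.3 ± 5.72, Daglb at 8.57 ± 2.01, Mgll at 1.24 ± 0.321, Faah at 1.16 ± 0.132, Napepld at 0.816 ± 0.104, Gdpd1 at 0.124 ± 0.0257 and Gdpd3 at 0.0151 ± 0.00447 (SD, n = 2). Gde1 and Gdpd5, and Mgll and Faah, did not differ beyond their spread. In Il33flx the 3 most abundant members kept their order, with 24.6 ± 1.72 for Gde1, 17.0 ± 0.211 for Gdpd5 and 6.67 ± 0.177 for Daglb. Gdpd3 was now the fourth at 3.84 ± 1.27 CPM per kb, above Faah at 1.62 ± 0.357 and Mgll at 1.61 ± 0.0712, which again did not differ beyond their spread. Napepld at 0.89 ± 0.133 and Gdpd1 at 0.266 ± 0.0508 came last. Gdpd3 was thus the least expressed of the 8 in both Ctrl libraries, and in both Il33flx libraries it lay between Daglb and the enzymes of N-acylethanolamine and monoacylglycerol breakdown.

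The other GDPD genes were Gdpd2, Gdpd4 and Gpcpd1. Gdpd2 had 2 and 8 counts in Ctrl and 16 and 14 in Il33flx, a log2 fold change of 1.66 ± 0.91 (SE; edgeR adjusted p = 0.995). Gdpd4 had 0 counts in every library. Gpcpd1, which hydrolyses glycerophosphocholine, had 40.1 and 58.1 CPM in Ctrl and 61.9 and 67.9 in Il33flx, a log2 fold change of 0.40 ± 0.23 (SE; edgeR adjusted p = 0.995). The share of all tested genes higher in both Il33flx libraries without overlap was 15.4%. Both tested genes of this list were among them, and neither was called. Their median was 1.03, and it ranged down to 0.41 under the filter of 1 CPM in 2 libraries, which leaves Gpcpd1 alone, and up to 1.81 without Ctrl 2. Gdpd2, like Gdpd3, was close to 0 in Ctrl, but it had only 0.212 ± 0.0205 CPM in Il33flx, where Gdpd3 had 8.40 ± 2.77 (SD, n = 2).

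The pathways around the members, these GDPD genes included, were covered by 6 lists with 69 genes, of which 56 were tested. None was called by edgeR in either direction, and none had an unadjusted p below 0.05. DESeq2, limma-voom and the other alternatives called none of them either. Without overlap, 2 were higher in both Il33flx libraries and 17 were lower, beside 15.4% and 14.9% of all tested genes. The median log2 fold change over the 56 was −0.05 and the range was −1.49 to 1.66. No list thus held a gene that passed the test beside Gdpd3.

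Other enzymes of N-acylethanolamine turnover had a median log2 fold change of −0.13 over 6 tested genes of 9. Of the 6, 0 were higher and 3 lower without overlap, beside 15.4% and 14.9% of all tested genes. Naaa, the lysosomal amidase that degrades N-acylethanolamines, had 2280 ± 257 CPM in Ctrl and 2370 ± 330 in Il33flx, and its groups overlapped. Abhd4, the lipase that prepares substrates for Gdpd1 and Gde1 by deacylating N-acylphosphatidylethanolamine, had 94.4 and 65.4 CPM in Ctrl and 60.4 and 58.0 in Il33flx (a log2 difference of −0.43 ± 0.23, SE; edgeR adjusted p = 0.995). Inpp5d, a phosphatase, had 1040 ± 210 CPM in Ctrl and 860 ± 31.8 in Il33flx, and Asah1, acid ceramidase, had 417 ± 23.0 and 362 ± 14.6. Of the N-acyltransferase genes, Pla2g4e, Hrasls and Hrasls5 were at 0 in every library, while Pla2g16 had 47.3 ± 7.87 CPM in Ctrl and 45.3 ± 5.10 in Il33flx, with overlap.

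Other genes of 2-arachidonoylglycerol turnover had a median of 0.04 over 7 tested genes of 9. Of the 7, 0 were higher and 1 lower without overlap, beside 15.4% and 14.9% of all tested genes. Abhd12, a monoacylglycerol and lysophosphatidylserine lipase, had 174 ± 13.8 CPM in Ctrl and 180 ± 4.92 in Il33flx. Of the phospholipases C that supply diacylglycerol, Plcb2 had 122 ± 13.4 and 127 ± 6.60 CPM, and Plcb3 had 56.4 and 43.5 CPM in Ctrl and 39.6 and 40.0 in Il33flx (edgeR adjusted p = 0.995).

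The list for synthesis and breakdown of lysophosphatidic acid by other routes had a median of −0.18 over 12 tested genes of 14. It also holds relatives of such enzymes with another activity, among them Pld4. Of the 12, 0 were higher and 3 lower without overlap, beside 15.4% and 14.9% of all tested genes. Enpp2, which encodes autotaxin, the secreted lysophospholipase D, had 102 and 74 counts in Ctrl and 97 and 31 in Il33flx. Pld4, an endolysosomal exonuclease of the phospholipase D family, had 1280 ± 214 CPM in Ctrl and 1060 ± 50.2 in Il33flx. Plpp2, a lipid phosphate phosphatase, had 46.7 and 38.7 CPM in Ctrl and 29.1 and 35.1 in Il33flx (a log2 difference of −0.41 ± 0.21, SE; edgeR adjusted p = 0.995). Plpp1, of the same family, had 148 ± 22.7 and 145 ± 18.4 CPM.

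Lipases and acyltransferases that use lysophospholipids had a median of −0.16 over 17 tested genes of 18. These lipids include substrates of Gdpd3 and also lysophosphatidic acid, which it releases. Of the 17, 0 were higher and 7 lower without overlap, beside 15.4% and 14.9% of all tested genes. Agpat3, which acylates lysophosphatidic acid, had 199 and 161 CPM in Ctrl and 117 and 141 in Il33flx (a log2 difference of −0.48 ± 0.20, SE; edgeR adjusted p = 0.995). Lpcat1, a lysophosphatidylcholine acyltransferase, had 329 ± 16.3 CPM in Ctrl and 284 ± 29.8 in Il33flx. Lpcat4 had 156 ± 34.3 and 119 ± 16.8 CPM, and Pnpla7, a lysophospholipase, had 166 ± 44.0 and 133 ± 0.872. For Pnpla7, as for Gdpd5 and Daglb, Ctrl 1 was the library apart. Without Ctrl 1 the median of the list was −0.10, that of the lysophosphatidic acid list −0.01 and that of the N-acylethanolamine list −0.05. In the same order, the medians were −0.16, −0.11 and −0.19 without Ctrl 2. They were −0.12, −0.21 and −0.21 without Il33flx 1, and −0.14, −0.26 and −0.10 without Il33flx 2.

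Receptors for these lipids had a median of −0.04 over 12 tested genes of 16. Of the 12, 0 were higher and 3 lower without overlap, beside 15.4% and 14.9% of all tested genes. Cnr2, the cannabinoid receptor of immune cells, had 70.2 and 53.7 CPM in Ctrl and 51.4 and 47.6 in Il33flx (a log2 difference of −0.32 ± 0.21, SE; edgeR adjusted p = 0.995). Lpar5, a receptor for lysophosphatidic acid, had 43.5 ± 12.0 CPM in Ctrl and 32.0 ± 1.97 in Il33flx. Gpr55, a receptor for lysophosphatidylinositol, had the smallest p of the list, with 4.03 and 2.67 CPM in Ctrl and 1.86 and 2.00 in Il33flx (a log2 difference of −0.79 ± 0.37, SE; edgeR adjusted p = 0.995). Gpr18 had 79.9 ± 9.72 and 77.3 ± 0.0739 CPM, and P2ry10, a lysophosphatidylserine receptor, had 62.2 ± 19.8 and 54.6 ± 8.95, both with overlap between the groups.

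**Figure D3:**
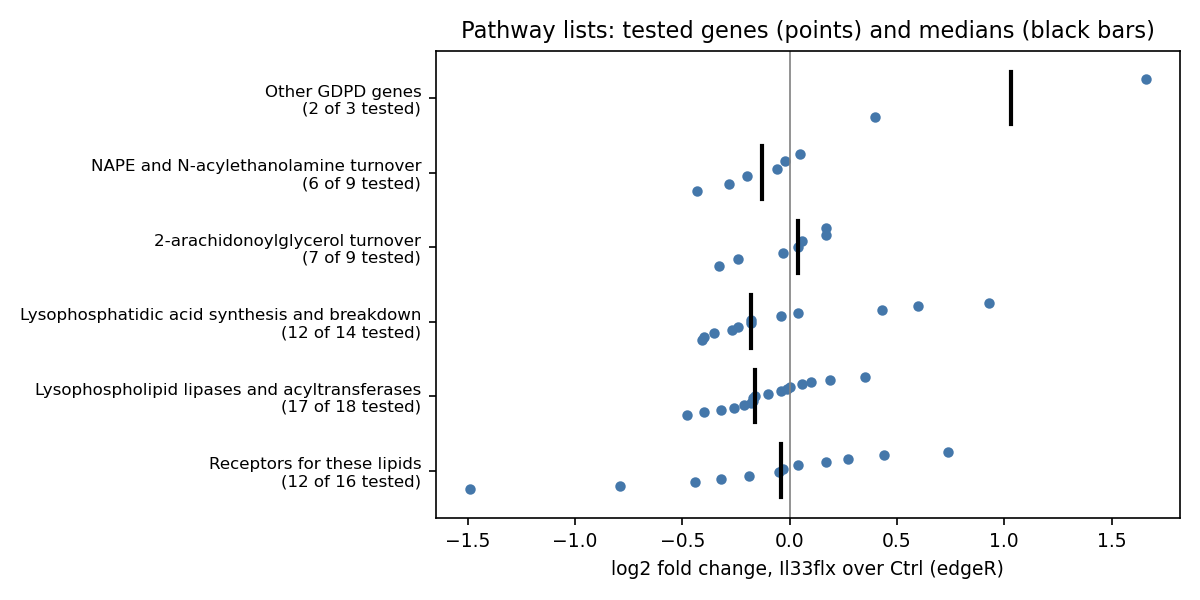
Log2 fold change of Il33flx over Ctrl (edgeR) for each tested gene of the 6 pathway lists (points), with the median of each list as a black bar. The points lie between −1.49 and 1.66, 5 of the 6 medians lie between −0.18 and 0.04, and the median of the other GDPD genes is 1.03.

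The genes around Gdpd3 are given with their own values, and no cause was tested. Within 100 kb of the Gdpd3 gene, 25 other genes are annotated, 18 have a row and 12 were tested. None was called by edgeR, 1 was higher and 4 were lower without overlap, and 11 of 12 log2 fold changes were negative, with a median of −0.13. Over all tested genes, the shares were 15.4% higher and 14.9% lower without overlap, and 48.2% negative. Mapk3, which encodes the kinase ERK1, ends 514 bp upstream of Gdpd3 on the same strand and had 42.0 and 33.8 CPM in Ctrl and 27.2 and 33.6 in Il33flx. The fitted difference on the log2 scale was −0.32 ± 0.22 (SE; edgeR adjusted p = 0.995). Ypel3, which starts 1305 bp downstream on the same strand, had 28.3 and 27.2 CPM in Ctrl and 30.4 and 33.3 in Il33flx, a log2 fold change of 0.20 ± 0.19 (SE; edgeR adjusted p = 0.995). Reads were thus plentiful on both sides of Gdpd3 in all 4 libraries, with differences between genotypes that were small beside that of Gdpd3.

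Sult1a1, a phenol sulfotransferase 89901 bp from Gdpd3, had the one unadjusted p below 0.05 within 100 kb and was singled out after its values were seen. It had 41.3 and 34.8 CPM in Ctrl and 17.7 and 20.0 in Il33flx, a log2 fold change of −1.01 ± 0.21 (SE; edgeR adjusted p = 0.961). It overlaps Sgf29 on the opposite strand. Within 1 Mb, a window also chosen after the values were seen, 74 genes were tested and none was called by edgeR. There, 4 had an unadjusted p below 0.05, 11 were higher and 19 lower without overlap, the median log2 fold change was −0.10 and the highest was 1.62. Over all tested genes 3.26% had such a p, and 15.4% were higher and 14.9% lower without overlap.

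**Figure D4:**
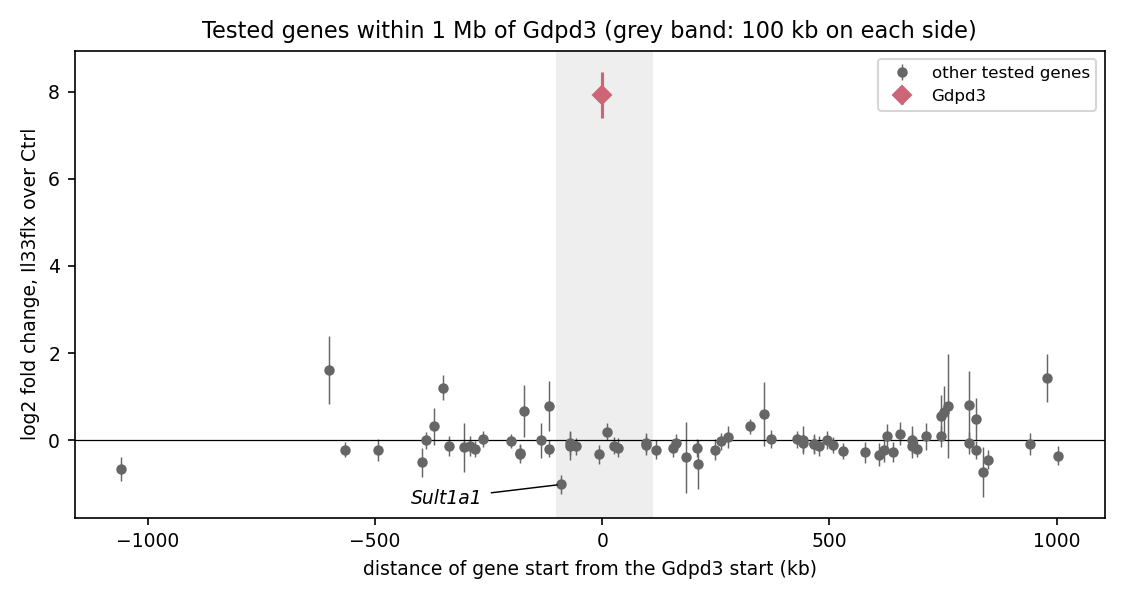
Log2 fold change of Il33flx over Ctrl (edgeR, bars 1 SE) against the distance of each gene's start from the Gdpd3 start in kilobases, for Gdpd3 (diamond) and the 74 other tested genes within 1 Mb of it (circles). Gdpd3 lies at 7.92, and the other genes lie between −1.01 and 1.62.

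The genes most like Gdpd3 were sought by the Euclidean distance between log2 CPM values over the 4 libraries, each gene centred on its own mean. The search covered 9113 named genes that reached 5 CPM in at least 1 group mean. A gene with no difference between libraries would lie 7.12 from Gdpd3 on this scale. The nearest of these was Wdfy1 at a distance of 4.25, with 5.98 and 6.69 CPM in Ctrl and 37.2 and 69.7 in Il33flx (a log2 difference of 3.08 ± 0.34, SE; edgeR adjusted p = 0.272). Wdfy1, which encodes an endosomal adaptor of Toll-like receptor signalling, was highest in Il33flx 2, whereas Gdpd3 was highest in Il33flx 1. Next came Hspa1b, an inducible heat shock protein, at 5.38 and Elane, neutrophil elastase, at 5.42. Hspa1b had 29.9 and 60.8 CPM in Ctrl and 101 and 268 in Il33flx, and its counts are uncertain because Hspa1a is a near-identical copy. Elane had 11.6 and 4.09 CPM in Ctrl and 28.4 and 21.5 in Il33flx. The order depends on the minimum level. With a minimum of 1 CPM, chosen after the values were seen, 10752 genes were searched and 4 lay nearer than Wdfy1. These were Zfpm2, a cofactor of GATA factors, at 0.60, the erythroid marker Slc4a1 at 2.24, the water channel gene Aqp1 at 3.25 and the erythroid marker Car1 at 3.52. Zfpm2 had 0 and 0 counts in Ctrl and 207 and 171 in Il33flx. Slc4a1 had 0 and 14 against 425 and 228, Aqp1 had 2 and 3 against 108 and 35, and Car1 had 12 and 30 against 259 and 237. Zfpm2, Slc4a1 and Aqp1, like Gdpd3, had at most 14 reads in each Ctrl library, where the log2 scale depends on the prior count of 2.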

How the data were processed

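RNA was sequenced with a poly(A)-selecting Illumina TruSeq mRNA kit after extraction with a Qiagen kit, per the labels. The deposited counts are whole reads per gene, with no normalization by the authors. The submitters' processing notes name Trimmomatic 0.39, STAR, HTSeq, DESeq2 and the build GRCm38. Annotation release, read length and strand setting are not given in the sources used here. The 5 HTSeq summary rows name no gene and were left out. Reads without a unique alignment were 21.86% to 23.06% and reads ambiguous between genes 2.62% to 2.74%, so genes with near-identical copies or overlaps can lose reads.

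The authors' deposited table of their DESeq2 comparison listed 15001 genes with signal columns (counts divided by a size factor, which was checked), log2 fold changes, a score (the Wald statistic) and p-values. Its values are used only where named.

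The genotypes were compared with edgeR 4.0.16 (R 4.3.3) by its quasi-likelihood test, with filterByExpr, TMM factors, no covariate and Benjamini-Hochberg adjustment over 14995 genes, called below 0.05. CPM uses TMM library sizes. The SE was taken as the fitted log2 change over the root of its F statistic. The biological coefficient of variation was 28.6%. With 2 libraries against 2 an exact permutation test of 1 value cannot reach 0.05, so none was run. The procedure was tested on simulated data. Alternatives were other scalings and filters, DESeq2 1.42.0, limma-voom (limma 3.58.1), a replicate block, each library left out, another gene length and, added later, a lower minimum level in the search for similar genes.

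GENCODE M21 of the same build gave coordinates, exon lengths (the union of all exons) and transcripts, and RefSeq gave promoters for 7 of the 8 members. The members, lists, motifs and tests were chosen with earlier results of these data known. The rule for named genes took the 8 members, from each pathway list the 3 smallest p and the 2 highest levels, the nearest protein-coding and overlapping neighbours of Gdpd3, and the 3 genes most like it. Some list genes of the rule are given only within their list's counts, and the other genes named (such as Enpp2, Dagla, Rac1, Sgf29, Sult1a1, the N-acyltransferases, the cell type markers, Zfpm2 and Aqp1) fall outside it and were taken after their values were seen.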

Additional observations from a re-analysis of the deposited data

How the results depend on the processing

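The main fit with edgeR called 1 gene, Gdpd3. It called 0 genes with library size alone (504 at an unadjusted p below 0.05) and 0 with no filter (591), and limma-voom called 0 (511). DESeq2 called 53 genes, 32 higher and 21 lower. The replicate block called 33 genes, 19 higher and 14 lower. The deviations of same-numbered libraries from their group means had a correlation of −0.0323 over the tested genes. With 2 libraries per group this value cannot decide whether the samples were paired, and the labels state no pairing. Leaving out 1 library gave 0 to 36 called genes, with 36 without Ctrl 1, 0 without Ctrl 2 and 29 without Il33flx 1. The causes were not tested.

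All alternatives use the counts by which Gdpd3 was chosen, so its direction in them gives no support. Gdpd3 was higher in Il33flx under all 11 alternatives, with log2 fold changes of 7.54 to 8.25 and adjusted p-values of 2.58e-21 (DESeq2) to 0.459 (limma-voom). It was called in 7 and not called with library size alone (adjusted p = 0.124 in edgeR), with no filter (7.91, adjusted p = 0.175 in edgeR), by limma-voom (7.71) and without Ctrl 2 (8.23). No other member was called in any alternative run. Gdpd1 ranged from 0.91 to 1.32 over 10 alternatives and was not tested under the filter of 1 CPM in 2 libraries. Gde1, at −0.12, was 0.01 without Ctrl 1 and −0.24 without Ctrl 2. Napepld, at 0.13, was −0.0048 without Ctrl 2, −0.04 without Il33flx 1 and 0.30 without Il33flx 2. With the longest transcript as gene length, Gdpd5 (31.2 CPM per kb) and Gde1 (28.6) exchanged places in Ctrl, as did Faah (1.64) and Mgll (1.57), and Gdpd3 remained rank 8 in Ctrl and rank 4 in Il33flx. The gene nearest to Gdpd3 lay at 4.25 with a minimum of 5 CPM and at 0.60 with 1 CPM. Depth limits what can be said of Gdpd3 in Ctrl, where 2 and 3 reads set every ratio, and of Gdpd1, Gdpd2 and Dagla.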
